A study of Homo sapiens with 5 samples.

Results

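The genes described here encode the MHC class II presentation machinery: the coactivator gene CIITA, the invariant chain gene CD74, and the class II chain genes HLA-DMA, HLA-DMB, HLA-DOA, HLA-DOB, HLA-DPA1, HLA-DPB1, HLA-DRA and HLA-DQA1. They were taken by gene symbol. A gene entered the comparison through a probe set whose platform annotation gave exactly 1 symbol, and where several such probe sets existed the one with the highest mean over the arrays was kept. Of these 10 genes, 8 had such a probe set, among 18417 genes in all. CD74 and HLA-DRA were covered only by probe sets annotated to several symbols, which are reported separately and are not assigned to 1 gene.

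The study profiled clones of Nalm6, a long-established human line grown from an acute lymphoblastic leukaemia of B-cell precursors. The control group held 2 clones with a nonsense hairpin (short hairpin RNA, shRNA) and the other group 3 clones with a hairpin to MondoA, each clone on its own array. MondoA, encoded by MLXIP, is a glucose-responsive transcription factor, and the series asks by its title how it acts on metabolism, differentiation and survival of this leukaemia. All clones were grown in the same RPMI medium with added serum and glucose. The labels do not say how the clones were derived or how many hairpins were used, so differences between clones and effects of the hairpin cannot be told apart beyond the spread within a group.

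Class II molecules are pairs of an alpha and a beta chain (HLA-DR, HLA-DP and HLA-DQ) that carry peptides from the endosome to the surface, where CD4 T cells read them. The invariant chain CD74 blocks the groove until the endosome, HLA-DM then exchanges its remnant for a peptide, and HLA-DO, found mainly in B cells, restrains HLA-DM. Transcription of these genes depends on CIITA, which binds no DNA itself and docks on the factors RFX, NF-Y and CREB at the X and Y boxes of class II promoters, and class II genes are a feature of the B lineage.

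The X and Y boxes lie just upstream of the start sites, so part of the promoter is shown for both chains of HLA-DM, HLA-DO and HLA-DP, the 3 pairs whose arrays are compared here. Each is the stretch from 140 to 41 bases before a start site, in the direction of the gene, from RefSeq (GRCh38.p14). Capitals mark every match, on either strand, to TGATGATG (letters of the later part of the X box, X2, in several class II genes), to AGCAAC (letters of the first part, X1) and to ATTGG (the core of the Y box, CCAAT on the other strand).
HLA-DMA (chr6:32953138-32953237, minus strand): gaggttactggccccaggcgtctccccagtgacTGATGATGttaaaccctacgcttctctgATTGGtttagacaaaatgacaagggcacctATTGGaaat
HLA-DMB (chr6:32941069-32941168, minus strand): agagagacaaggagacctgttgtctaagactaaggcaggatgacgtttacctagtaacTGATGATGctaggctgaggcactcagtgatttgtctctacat
HLA-DOA (chr6:33009632-33009731, minus strand): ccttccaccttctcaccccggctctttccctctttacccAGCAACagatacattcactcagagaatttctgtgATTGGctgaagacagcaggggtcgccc
HLA-DOB (chr6:32817043-32817142, minus strand): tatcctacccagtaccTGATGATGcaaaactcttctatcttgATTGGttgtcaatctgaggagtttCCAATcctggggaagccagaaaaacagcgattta
HLA-DPA1 (chr6:33073690-33073789, minus strand): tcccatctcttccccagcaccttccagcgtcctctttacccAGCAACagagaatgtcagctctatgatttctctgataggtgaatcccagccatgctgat
HLA-DPB1 (chr6:33075850-33075949, plus strand): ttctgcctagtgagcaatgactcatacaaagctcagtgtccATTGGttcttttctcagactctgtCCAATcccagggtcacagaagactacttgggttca

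A promoter window of 300 bases (250 before and 50 after a start) was found by symbol for 8 of the 10 genes, the exceptions being CIITA and HLA-DRA, and HLA-DPA1 had 2 windows, of which the one with AGCAAC is shown. The letters TGATGATG stood in the windows of HLA-DMA, HLA-DMB and HLA-DOB, against 0.940% of all 35116 windows. ATTGG stood in 7 of the 8 genes' windows, against 34.6% of all windows, and AGCAAC in 3 (HLA-DMA, HLA-DOA and HLA-DPA1), against 12.8%. The motifs were chosen after these sequences were seen, and a match is a description of letters. No difference of expression is read against these motifs.

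All expression values are RMA (robust multi-array average) values on the log2 scale, where 1 unit is a doubling. A difference is the MondoA shRNA mean minus the control mean, and the error of a group mean is the SD (control n = 2, MondoA shRNA n = 3). Tests are by limma, a linear model that borrows the variance estimate across genes, with Benjamini-Hochberg adjustment over all 18417 genes and a threshold of 0.05. The target gene MLXIP gave 6.42 in each control clone against 6.42, 6.47 and 6.29 in MondoA shRNA clones 1, 2 and 3, or -0.03 between the group means (adjusted p = 0.959 in limma). A lower level of the target was therefore not detected, and directions refer to the labels. Both control clones and MondoA shRNA clone 1 held an identical MLXIP value, and how well this probe set responds to RNA was not tested. Markers of the labelled cell type were present: all 16 measured B-precursor genes lay above the median gene level of 4.15, while 13 of 14 myeloid and dendritic and 12 of 14 T and natural killer genes lay below it.

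Most members had a higher mean in the arrays labelled MondoA shRNA, without any member passing the adjusted test. The members were chosen with earlier results of these data known, and 2 of those measured (HLA-DOB and HLA-DQA1) lay below the median gene level. Of the 8 genes, 6 had a difference above 0 and 2 below, with a median of 0.21, against a median of 0.00 over all genes, of which 49.1% lay above 0 and 41.2% below. Limma called 0 of 8 at the adjusted threshold, and 0% of all genes. At an unadjusted p under 0.05 stood 3 higher members (HLA-DMB, HLA-DMA and HLA-DPA1) and 1 lower member (HLA-DOB), that is 4 of 8 where the background was 3.73% of genes (1.55% higher and 2.18% lower). That count was 1 without MondoA shRNA array 3 and 1 without the moderation of limma. Over all 18417 genes the counts in these fits were 586 and 472, against 687 in the main fit. In 5 genes every MondoA shRNA array lay above both control arrays, and in 1 gene below them. Over all genes such separation was seen in 4.85% (higher) and 5.18% (lower). Many genes hold identical RMA values on several arrays. Among the 4301 genes with no repeated value the shares were 14.4% and 16.6%. Of the 6 class II genes with no repeated value, 4 had all MondoA shRNA arrays above the controls and 1 had them below. The 4 members at an unadjusted p under 0.05 also held no repeated value, so 3.73% is a low background for them. When limma was fitted to the 4301 genes alone, 551 stood at an unadjusted p under 0.05, among them 3 of the 6 class II genes. In bulk RNA a changed mix of cells and a changed amount of RNA per cell cannot be told apart.

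**Figure D1:**
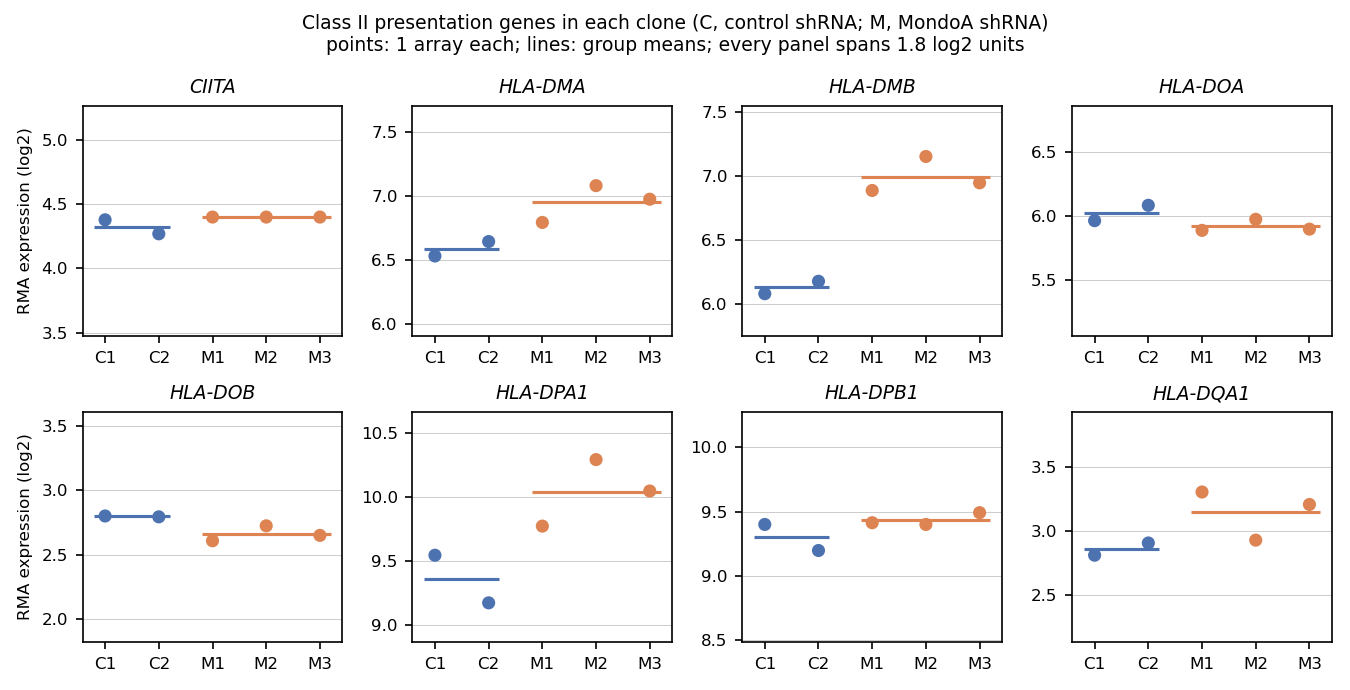
RMA expression (log2, y axis) of the 8 genes in each clone (x axis), with control shRNA clones C1 and C2 in blue, MondoA shRNA clones M1 to M3 in orange and lines at the group means. HLA-DMB, HLA-DMA, HLA-DPA1, HLA-DQA1 and CIITA have all orange points above the blue ones, HLA-DOB has them below, and HLA-DOA and HLA-DPB1 overlap.

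HLA-DM, the peptide exchanger, held the largest difference of the group. HLA-DMB, its beta chain (probe set 8125530, chromosome 6), read 6.08 and 6.18 in control clones 1 and 2, against 6.89, 7.15 and 6.95 in MondoA shRNA clones 1, 2 and 3. The groups did not overlap, and the gap between them was wider than the spread within either. The means were 6.13 ± 0.07 and 6.99 ± 0.14, a difference of 0.86 ± 0.10 (SE), or 1.82-fold with a 95% interval from 1.48 to 2.23. Its unadjusted p was 0.00168 and its adjusted p 0.557 in limma. Only 0.391% of all genes had a difference of that size or more in either direction. The second HLA-DMB probe set (8180078) gave 0.76.

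The call for HLA-DMB depended on which genes shared the test. When only the 4301 genes without a repeated value were tested, HLA-DMB was called (adjusted p = 0.0233 in limma), as were 1.40% of the genes tested. Over the other alternatives, the adjusted p for HLA-DMB ran from 0.098 with the arrays quantile normalised again to 0.828 with the replicate number as a block, and with 1 array left out it ran from 0.243 to 0.735. The difference itself lay between 0.79 and 0.92 with 1 array left out. Quantile normalising again and centring each called 0.0109% of genes, and dropping the moderation called 0.0163%, in each case with 0 class II genes among them.

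HLA-DMA, the alpha chain (probe set 8178884), read 6.53 and 6.64 in the control clones against 6.79, 7.08 and 6.97 in the MondoA shRNA clones. The groups did not overlap, though MondoA shRNA array 1 lay close to control array 2. The difference was 0.36 ± 0.11 (SE), or 1.28-fold, and its 95% interval on the log2 scale ran from 0.05 to 0.67 (adjusted p = 0.833 in limma). Of its 3 probe sets, 2 held identical values, and the third (8125537) gave 0.32.

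For HLA-DO, the restrainer of HLA-DM, the differences lay below 0, but neither chain passed the adjusted test. HLA-DOA, its alpha chain (probe set 8180093), read 5.96 and 6.08 in the control clones against 5.89, 5.98 and 5.90 in the MondoA shRNA clones, so that the groups overlapped. The difference was -0.10 ± 0.05 (SE), and its 95% interval ran from -0.26 to 0.05 (adjusted p = 0.833 in limma). It was -0.044 without control array 2 and -0.16 without control array 1. The second HLA-DOA probe set (8125545) gave -0.06, and -0.019 without MondoA shRNA array 1. Its groups overlapped, with 5.99 in both control clones against 5.84, 6.02 and 5.93 in the MondoA shRNA clones. HLA-DOB, the beta chain (probe set 8125470), read 2.80 and 2.79 in the control clones against 2.61, 2.72 and 2.65 in the MondoA shRNA clones. Its 3 MondoA shRNA arrays lay below both controls, but the difference was -0.14 ± 0.04 (adjusted p = 0.833 in limma) at a level below the median gene level of 4.15. The second HLA-DOB probe set (8178833) gave -0.19. Whether HLA-DOB was above background was not assessed, so its difference is not read as a change in RNA.

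Among the chains that present peptide and have a single-symbol probe set, HLA-DPA1 differed most. This alpha chain of HLA-DP (probe set 8180100) read 9.54 and 9.17 in the control clones against 9.77, 10.29 and 10.05 in the MondoA shRNA clones. The groups did not overlap, while the clones within each group were far apart, at 9.36 ± 0.26 and 10.04 ± 0.26. The difference was 0.68 ± 0.22 (SE), or 1.60-fold with a 95% interval from 1.03 to 2.49, and the adjusted p was 0.833 in limma. It ran from 0.49 without control array 2 to 0.86 without control array 1. The other 2 HLA-DPA1 probe sets were copies of each other and gave 0.63.

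Its partner HLA-DPB1 (probe set 8179519), the beta chain of HLA-DP, read 9.40 and 9.20 in the control clones against 9.41, 9.40 and 9.49 in the MondoA shRNA clones. Control array 1 and MondoA shRNA array 2 held the same value, so the groups overlapped in this probe set. HLA-DPB1 differed by 0.14 ± 0.08 (SE), and its 95% interval ran from -0.09 to 0.36 (adjusted p = 0.833 in limma). It was 0.035 without control array 2 and 0.24 without control array 1. The 3 HLA-DPB1 probe sets gave 0.12 to 0.16. In 8178220, which held no repeated value, the control clones read 9.04 and 8.95 against 9.10, 9.17 and 9.20 in the MondoA shRNA clones. The groups did not overlap there, with a difference of 0.16 and a 95% interval from 0.02 to 0.31. Its unadjusted p was 0.035 and its adjusted p 0.836 in limma, in the fit over all probe sets with a symbol. In 8118594 the groups overlapped, as in 8179519.

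HLA-DQA1, the alpha chain of HLA-DQ (probe set 8118556), read 2.81 and 2.91 in the control clones against 3.30, 2.93 and 3.21 in the MondoA shRNA clones. The arrays of the groups did not overlap, but MondoA shRNA array 2 lay close to control array 2, and all 5 values lay below the median gene level. HLA-DQA1 differed by 0.29 ± 0.14 (SE), and its 95% interval ran from -0.11 to 0.69 (adjusted p = 0.833 in limma). Whether HLA-DQA1 was above background was not assessed, so its difference is not read as a change in RNA.

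CIITA, the coactivator on which class II transcription depends (probe set 7993195, chromosome 16), differed little. It read 4.38 and 4.27 in control and 4.40 in each of the 3 MondoA shRNA arrays, values equal to 6 decimals. Its mean of 4.37 over all arrays lay close to the median gene level of 4.15. Whether CIITA was above background was not assessed, so its small difference is not read as unchanged RNA. The difference was 0.08 ± 0.04 (SE), or 1.05-fold with a 95% interval from 0.98 to 1.14 (adjusted p = 0.833 in limma). Without control array 1 the difference was 0.13 and CIITA was called (adjusted p = 0.0172 in limma), as were 4.08% of all genes. That fit takes its spread from the MondoA shRNA group alone, whose 3 CIITA values do not vary. Without control array 2 the difference was 0.02 and no class II gene was called (2.47% of all genes were). The probe set does not separate the transcripts that start at the different CIITA promoters.

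Probe sets annotated to several symbols covered the chains that the single-symbol rule left out. Their differences come from a fit over all 21214 probe sets with a symbol, chosen after seeing the data, in which limma called 0% (3.83% stood at an unadjusted p under 0.05). The probe set shared by CD74 and ROS1 (8115147) read 9.60 and 9.53 in the control clones against 10.02, 10.38 and 9.98 in the MondoA shRNA clones. Every MondoA shRNA array lay above both controls, and array 2 was the highest. The difference was 0.56 ± 0.15 (SE), or 1.48-fold (adjusted p = 0.836 in limma).

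The 3 probe sets shared by HLA-DRA and HLA-DQA1 gave 0.58 to 0.59. The one of highest level (8178193) read 10.08 and 10.07 in the control clones against 10.59, 10.91 and 10.52 in the MondoA shRNA clones, a difference of 0.59 ± 0.14 (adjusted p = 0.836 in limma). The control clones were nearly equal there, and the MondoA shRNA clones spread over 0.21 (SD). These 3 carry the same annotation and are not taken as independent measurements.

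The 3 probe sets annotated to 6 symbols (HLA-DRB1, HLA-DRB3, HLA-DRB4, HLA-DRB5, HLA-DRB6 and HLA-DQB1) gave 0.29 to 0.30, with every MondoA shRNA array above the controls. The one of highest level (8178802) read 8.75 and 8.77 in the control clones against 9.12, 9.05 and 8.98 in the MondoA shRNA clones (adjusted p = 0.805 in limma). Here array 1, not array 2, was the highest. The single-symbol probe set of HLA-DRB5, a beta chain of HLA-DR, read 4.75 and 4.80 against 4.93, 4.91 and 4.87, a difference of 0.13 (adjusted p = 0.833 in limma).

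The widest difference on the log2 scale was in a probe set shared by HLA-DQA2 and HLA-DQA1 (8178199). It read 4.82 and 4.30 in the control clones against 5.25, 6.46 and 5.72 in the MondoA shRNA clones, a difference of 1.25 ± 0.45 (SE) with a 95% interval from -0.07 to 2.58 (adjusted p = 0.836 in limma). The clones of each group were far apart, at SD 0.37 and 0.61, and the difference ran from 0.93 without MondoA shRNA array 2 to 1.53 without MondoA shRNA array 1. An identical copy of it aside, the other 2 probe sets with this annotation gave 0.30 (8118564) and 0.27 (8178205), with overlapping groups, and both were 0.11 without MondoA shRNA array 2. The 4 probe sets shared by HLA-DQB2 and HLA-DQB1 gave 0.15 to 0.20, with overlapping groups and MondoA shRNA array 2 highest in each. With 1 array left out they ran from 0.0090 (8180029, without MondoA shRNA array 2) to 0.38 (8178826, without control array 1).

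**Figure D2:**
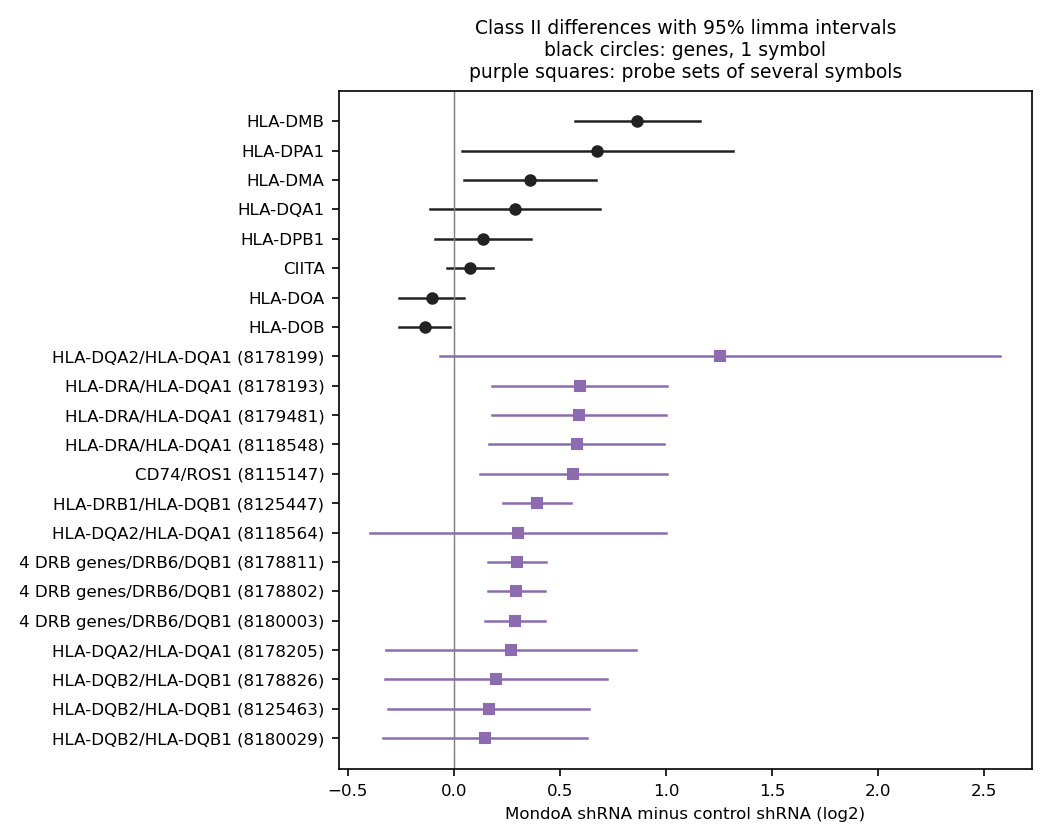
MondoA shRNA minus control shRNA (log2, x axis) with 95% limma intervals for the 8 genes (black circles) and for the probe sets annotated to several class II symbols, exact copies shown once (purple squares, with probe set numbers). HLA-DMB at 0.86 and HLA-DPA1 at 0.68 lead the genes, HLA-DOA and HLA-DOB lie below 0, and all purple squares lie above 0, from 0.15 to 1.25.

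Across all probe sets annotated to a class II gene, with exact copies counted once, 26 of 31 differences lay above 0 and 5 below. The 5 below 0 were the probe sets of HLA-DOA and HLA-DOB and the single-symbol probe set of HLA-DQB1. In 19 of the 31 the MondoA shRNA arrays all lay above the controls, against 4.88% of all probe sets with a symbol. Many of the 31 held no repeated value, and among the 4301 genes with no repeated value that share was 14.4%. Many of the 31 are annotated to the same genes, and they are not independent.

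The MondoA shRNA clones also differed among themselves. Array 2 alone held the highest value in 19 of the 31 class II probe sets, against 23.4% of all probe sets with a symbol, and in 3 of the 8 genes (HLA-DMA, HLA-DMB and HLA-DPA1), against 23.6% of all genes. Ties for the highest value are not counted in these shares, which were not taken again for genes without repeated values. Without that array the median difference of the 8 genes was 0.23. The B-precursor marker CD22 was also highest in array 2, at 7.73 against 7.14 and 7.68 in arrays 1 and 3 and 6.15 and 6.35 in control, and its part in the class II result was not tested. DNTT, the terminal transferase gene of early B cells, lay on the other side, with 10.57 and 10.47 in the control clones against 9.15, 9.73 and 9.09 in the MondoA shRNA clones, a difference of -1.19 (adjusted p = 0.833 in limma). CD38, RAG1 and CD24 also had differences below 0 (-0.50, -0.45 and -0.33), with the groups apart. CD79A, CD79B and TCF3 had differences above 0 (0.91, 0.25 and 0.25), also with the groups apart. With CD22 and DNTT, that made 4 markers apart and higher and 4 apart and lower. Over all genes 4.85% and 5.18% were so. Of the differences of all 16 B-precursor markers 8 lay above 0 and 8 below, and their mean level was 8.59 to 8.66 over the control and 8.53 to 8.77 over the MondoA shRNA clones.

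**Figure D3:**
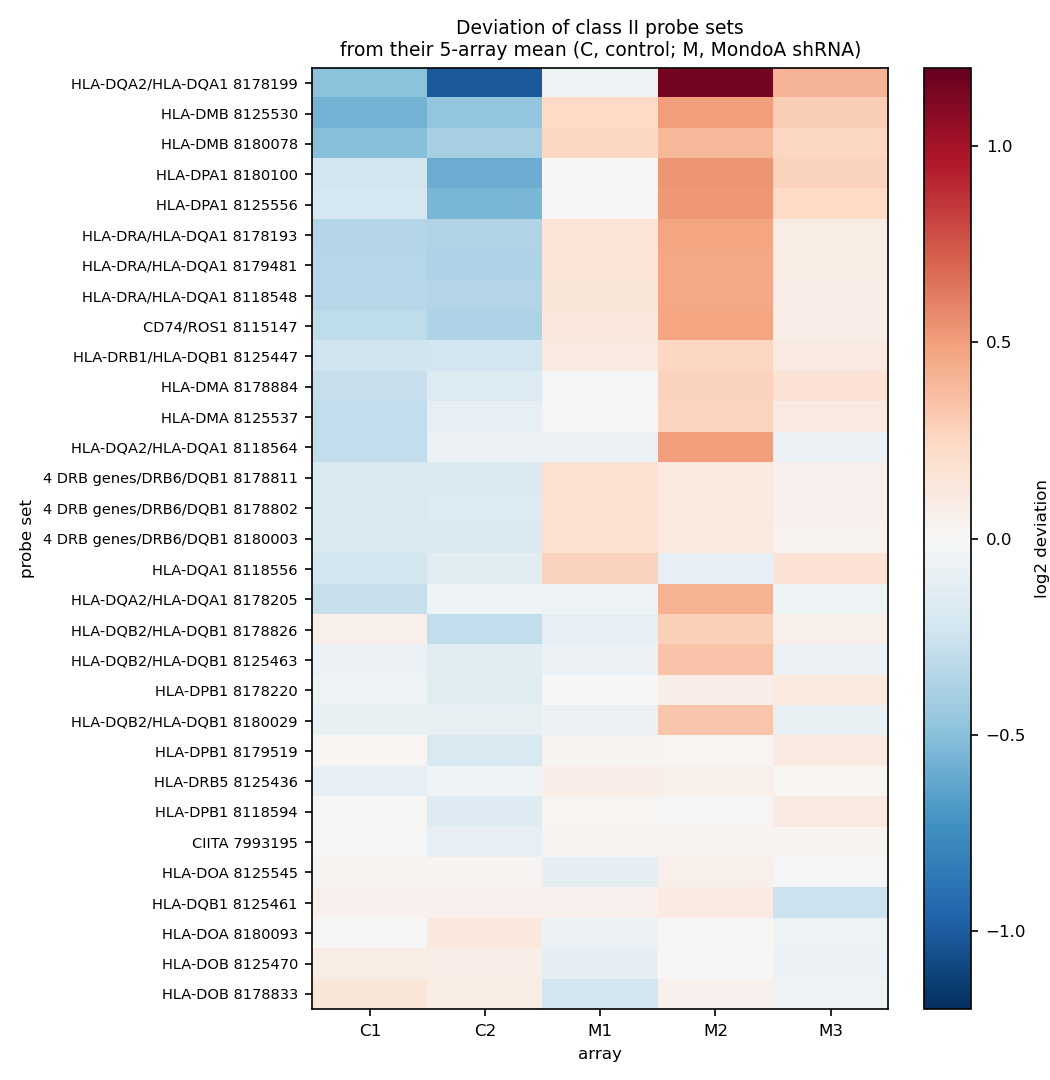
Deviation of each class II probe set (y axis) from its mean over the 5 arrays (log2, colour), by array (x axis), ordered by the difference between the groups. Most probe sets are blue in control arrays C1 and C2 and red in MondoA shRNA array M2, while the bottom 5 rows (HLA-DOA, HLA-DOB and HLA-DQB1) are at or above their mean in the control arrays.

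The chains of a heterodimer can be compared on the same array, by asking whether beta minus alpha changed between the groups. HLA-DMB minus HLA-DMA was -0.45 and -0.47 in the control clones against 0.09, 0.07 and -0.03 in the MondoA shRNA clones. The groups did not overlap, and the beta chain difference exceeded the alpha chain difference by 0.50. HLA-DPB1 minus HLA-DPA1 was -0.14 and 0.02 in the control clones against -0.36, -0.89 and -0.55 in the MondoA shRNA clones. There the order was opposite, with the beta chain difference smaller than the alpha chain difference by 0.54 (a change of -0.54). HLA-DOB minus HLA-DOA was -3.16 and -3.29 against -3.28, -3.25 and -3.25, a change of -0.03 with overlapping groups. HLA-DOB lay below the median gene level and was not assessed against background. The HLA-DO pair is therefore not read as a contrast to HLA-DM and HLA-DP.

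The exact two-sided permutation test over the 5 arrays gave p = 0.2 for HLA-DM and for HLA-DP and 0.8 for HLA-DO, or 0.3, 0.3 and 0.8 adjusted over the 3 pairs. The value of 0.2 is the smallest that 10 arrangements of 2 and 3 arrays allow, so this test cannot reach 0.05, whatever the values. The level of one chain against the other is not read, only the change between arrays. The probe sets of 2 chains may respond to RNA with different slopes. That alone could change beta minus alpha where both chains moved alike, and it was not tested.

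**Figure D4:**
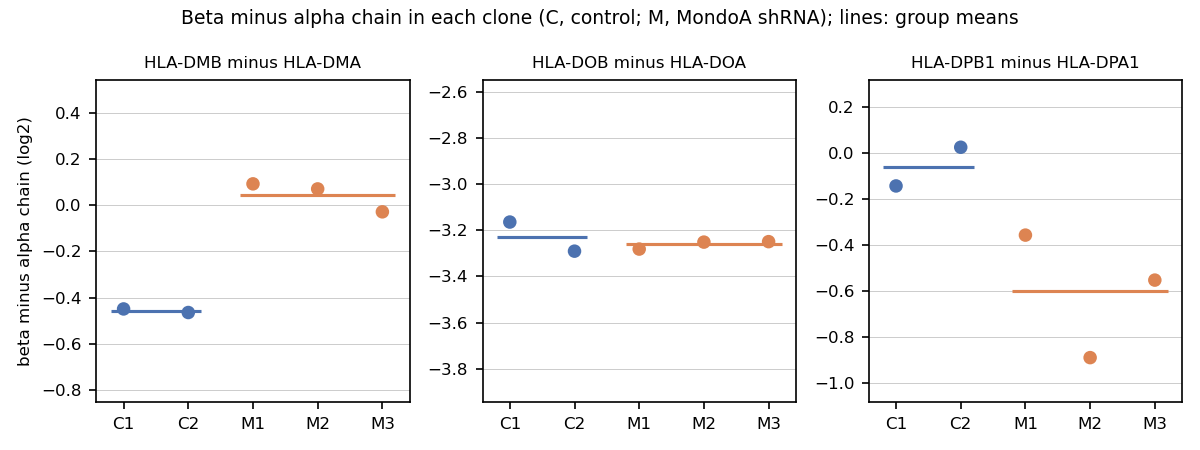
Beta minus alpha chain (log2, y axis) on each array (x axis; C, control shRNA in blue; M, MondoA shRNA in orange; lines at group means) for HLA-DM, HLA-DO and HLA-DP. The control and MondoA shRNA points are apart for HLA-DM (change 0.50) and, in the other direction, for HLA-DP (-0.54). They overlap for HLA-DO, whose beta chain gene HLA-DOB lay below the median gene level.

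Genes whose values moved most like those of HLA-DMB over the 5 arrays were named by Euclidean distance between deviations from each gene's own mean. The 5 nearest of 18409 other genes were CLEC2D, a lectin-like ligand gene of lymphocytes (distance 0.13, difference 0.79), the Polycomb subunit gene SUZ12 (0.21 and 0.77), the T-cell receptor kinase gene ZAP70 (0.23 and 0.99), LRRC14B (0.25 and 0.74) and SYAP1 (0.27 and 0.84). Among class II genes the nearest was HLA-DPA1 at 0.43, with 32 genes outside the group nearer, followed by HLA-DMA at 0.56, with 100 nearer. CIITA lay at 0.90, with 3490 genes nearer.

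The factors that assemble on class II promoters showed no common direction. Of 12 measured (subunits of RFX and NF-Y, CREB1 and coactivators), 6 lay above 0 and 6 below, with a median of 0.01. The coactivator gene SUB1 was highest at 0.27 and the acetyltransferase gene KAT2B lowest at -0.26, both with overlapping groups. At an unadjusted p under 0.05 stood 1 lower gene, the acetyltransferase EP300 (-0.22, adjusted p = 0.833 in limma), against 2.18% of all genes in that direction. RFX5, the DNA-binding subunit, read 8.27 and 8.15 in control and 8.27 in each of the 3 MondoA shRNA arrays.

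Genes that induce or restrain CIITA (14 measured, among them the interferon gamma receptor chains, JAK kinases and IRF factors) had a median difference of 0.00, with 8 above 0 and 6 below. Limma gave 0 of them an unadjusted p under 0.05, against 3.73% of all genes (0 of them also at the adjusted threshold). SPI1, the factor PU.1 of B and myeloid cells, was highest, with 6.05 and 6.27 in the control clones against 6.34, 6.81 and 6.33 in the MondoA shRNA clones, a difference of 0.33 (adjusted p = 0.833 in limma). Its groups did not overlap, and array 2 was again the highest. JAK2 was lowest at -0.09, with overlapping groups at a level below the median gene level.

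Endosomal proteases and other genes of peptide generation (15 measured) had a median of 0.03, with 11 above 0 and 3 below. Limma gave 0 of them an unadjusted p under 0.05, against 3.73% of all genes. CTSS, the cathepsin that trims the invariant chain in B cells, read 6.18 and 5.84 in the control clones against 6.18, 6.65 and 6.18 in the MondoA shRNA clones, a difference of 0.33 with overlapping groups. CTSC, a cathepsin that activates granule proteases, was lowest at -0.20. Genes of class II turnover and transport (17) had a median of -0.04, with 7 above 0 and 10 below. CD82 and CD81 were the 2 at an unadjusted p under 0.05, against 3.73% of all genes. The tetraspanin gene CD82 was highest at 0.58 (6.60 and 6.52 against 7.41, 6.94 and 7.08, adjusted p = 0.833 in limma), and CD81, a tetraspanin of the B-cell co-receptor, lowest at -0.18 with the groups apart.

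Genes of costimulation and T-cell contact (12) had a median of 0.00, with 3 above 0 and 7 below. The adhesion ligand gene ICAM1 was highest at 0.46 (5.82 and 6.05 against 6.29, 6.76 and 6.13), and TNFSF4, the OX40 ligand gene, lowest at -0.65 (6.20 and 5.67 against 5.00, 5.64 and 5.25). The groups did not overlap in either gene, and neither passed (adjusted p = 0.833 in limma). The 1 gene at an unadjusted p under 0.05 was TNFRSF14, a receptor that binds the lymphocyte inhibitor BTLA, at 0.15 (adjusted p = 0.833 in limma). Over all genes 1.55% stood there in that direction. The costimulators CD80, CD86 and CD40, chosen after their values were seen, read below the median gene level in all 5 arrays.

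Of the MHC class I and peptide loading genes, the machinery most like class II, 15 were measured. Of these, 11 lay above 0 and 3 below, with a median of 0.05. The groups were apart in 0 of them, where 4.85% (higher) and 5.18% (lower) of all genes were apart. Limma gave 0 of them an unadjusted p under 0.05, against 3.73% of all genes. With so few genes, counts of 0 are near these shares. The proteasome activator gene PSME1 was highest at 0.34, with MondoA shRNA array 2 at 9.30 and the other 4 arrays from 8.29 to 8.54, and the peptide transporter gene TAP1 was lowest at -0.12. The classical class I heavy chain genes had no single-symbol probe set. The difference between the class I and class II medians was not tested.

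**Figure D5:**
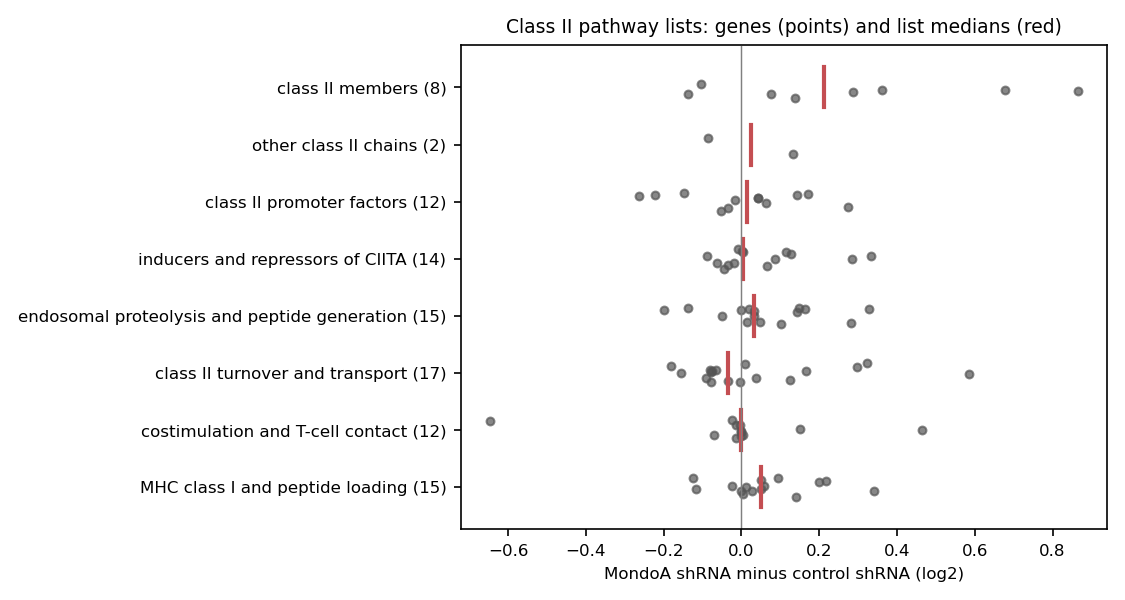
MondoA shRNA minus control shRNA (log2, x axis) for the genes of 8 lists of the class II pathway (y axis, number measured in brackets), with points for genes and red bars for list medians. The 8 class II genes have a median of 0.21, and the medians of the other lists lie between -0.04 and 0.05.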

How the data were processed

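RNA of 5 clones was hybridised to Affymetrix whole-transcript arrays. The authors' deposited values are log2 expression from RMA in Affymetrix Expression Console 1.1, per the submitters' processing notes; the log base was taken as 2, and the genome build is not given in the sources used here. Probe intensities and array dates were not used here. Symbols came from the platform annotation (19460 probe sets with 1 symbol, 1754 with several, 12083 with none) and were updated by Entrez number for 19429 through RefSeq (GRCh38.p14). The groups followed the titles. Each of 18417 genes was fitted with limma 3.58.1 in R 4.3.3 (lmFit, eBayes, two-sided), checked on simulated data. The class II genes and the pathway lists were chosen with earlier results of these data known. By rule the named genes were these, the highest and lowest of each pathway list, MLXIP and the 5 nearest to HLA-DMB; the B-precursor markers, EP300, RFX5, TNFRSF14, CD80, CD86 and CD40 were named after their values were seen. Alternatives changed the arrays, normalisation, moderation, weights, filters and probe sets. With 5 arrays, their number limits the precision. The p-values set a difference between groups against the spread of clones within a group, and how independent the clones were is not stated.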

Additional observations from a re-analysis of the deposited data

How the results depend on the processing

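None of the 8 differences changed sign under the alternatives in which the gene was tested (16 for HLA-DMA, HLA-DMB, HLA-DOA and HLA-DPA1, 15 for the other 4); in the 6 genes whose groups do not overlap, leaving out an array cannot change it. The count of called genes of 0 became 1 (HLA-DMB, 0.86) in the fit without tied values and lay between 0 and 1 when an array was dropped, and the median of 0.21 became 0.32 without tied values, where 6 of the 8 genes were tested. With 1 array left out, CIITA ran from 0.021 (no control 2) to 0.13 (no control 1). Over all genes, the count of 0 (687 before adjustment) was 2 after a second quantile normalisation, 2 after centring, 3 for an unmoderated fit and 60 for genes free of ties, and it ran from 0 to 752 when an array was dropped. Apart from the fewer genes and samples these involve, the cause was not tested. HLA-DOB minus HLA-DOA ran from -0.097 to 0.030 with 1 array left out, the latter without control array 1.

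The replicate numbers in the titles are not stated to link clones. Deviations of same-numbered arrays correlated at -0.31 and -0.24 across the brighter genes. Deviations from a shared mean can correlate below 0 without any link, so these values cannot decide whether the numbers link clones. As no link is stated, the arrays were not used as pairs. With the replicate number as a block, which sets MondoA shRNA array 3 aside, 0 genes were called and the median of the 8 genes was 0.18. In that fit 1 of them stood at an unadjusted p under 0.05, against 4 in the main fit. Over all 18417 genes the counts were 660 and 687.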
